A study of Homo sapiens with 132 samples.

Results

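Notch signalling genes were followed in MKN1, MKN7, NCI-N87 and Hs746T, 4 gastric cancer cell lines. The 9 genes were the receptors NOTCH1, NOTCH2 and NOTCH3, the ligands JAG1, JAG2, DLL1 and DLL4 and the target genes HES1 and HEY1, chosen by symbol from 65217 Ensembl gene identifiers. Poly(A) RNA was sequenced in 44 conditions with 3 replicates each, and the total count of a library ranged from 25832557 to 69434151. All 4 cell lines were left untreated or received trastuzumab (Tra, 5 µg/ml), an antibody against HER2, afatinib (Afa, 0.5 µM), a kinase inhibitor of EGFR and HER2, or both (Tra+Afa). MKN1 and Hs746T also received the growth factor EGF (5 ng/ml), cetuximab (Cet, 1 µg/ml), an antibody against EGFR, or both (EGF+Cet). RNA was taken after 4 h and 24 h. The controls are labelled untreated. Per the methods afatinib was dissolved in DMSO, and no solvent control was analysed here, so the effect of afatinib and that of its solvent cannot be told apart. Each cell line is 1 model grown in culture with 10% serum, MKN1, MKN7 and NCI-N87 in RPMI and Hs746T in DMEM. Nothing in the labels says that replicates came from separate cultures, so p-values measure the spread between these libraries, which may be technical.

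Notch receptors are cut after a ligand on a neighbouring cell binds them, and the released intracellular part enters the nucleus and joins the DNA-binding protein RBPJ to switch on target genes. JAG1, JAG2, DLL1 and DLL4 are membrane-bound ligands. HES1 and HEY1 encode transcriptional repressors that are among the best known targets, although other pathways can also switch on HES1. In the stomach, Notch signalling is known for its part in keeping stem and progenitor cells dividing. Levels below are RNA levels in CPM (counts of a gene scaled to a common library total) and say nothing of receptor cleavage or protein.

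The HES1 promoter is shown because it carries the letters that RBPJ is known to bind, TGGGAA, next to each other. On the plus strand of chr3:194135898-194136147 (GRCh38.p14, RefSeq), the 250 bases before the start of HES1 read as follows, with both copies of TGGGAA in capitals.
HES1 promoter: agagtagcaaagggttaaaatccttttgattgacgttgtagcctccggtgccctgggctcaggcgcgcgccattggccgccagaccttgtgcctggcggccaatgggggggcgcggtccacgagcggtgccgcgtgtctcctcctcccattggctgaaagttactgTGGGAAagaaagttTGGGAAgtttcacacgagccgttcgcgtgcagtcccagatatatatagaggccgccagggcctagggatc
The copies begin 84 and 70 bases before the start site. Of 35116 promoter windows of 300 bases (250 before the start and 50 after it), 24.0% held TGGGAA on either strand and 3.80% held it at least 2 times. A promoter was at hand for 7 of the 9 genes, not for DLL1 and HEY1. The windows of NOTCH1, NOTCH2, NOTCH3, JAG1, JAG2 and DLL4 held 0 copies, which says only that the letters are not in these windows. Among other genes of the HES and HEY families, HES5, HEY2 and HEYL held 2 copies, HES4 held 1, and HES2, HES6 and HES7 held 0, as did NRARP. These matches are a description of letters, and no binding was measured here.

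In GENCODE 29 (GRCh38), NOTCH1 (ENSG00000148400) lies on chromosome 9 from 136494433 to 136545786, NOTCH2 (ENSG00000134250) on chromosome 1 from 119911553 to 120069626 and NOTCH3 (ENSG00000074181) on chromosome 19 from 15159038 to 15200981, all on the minus strand. JAG1 (ENSG00000101384) lies on chromosome 20 from 10637684 to 10673999, JAG2 (ENSG00000184916) on chromosome 14 from 105140981 to 105168824 and DLL1 (ENSG00000198719) on chromosome 6 from 170282206 to 170306565, also on the minus strand. DLL4 (ENSG00000128917) lies on the plus strand of chromosome 15 from 40929333 to 40939073. HES1 (ENSG00000114315) lies on the plus strand of chromosome 3 from 194136145 to 194138732, and HEY1 (ENSG00000164683) on the minus strand of chromosome 8 from 79764010 to 79767863. NOTCH2 has partial copies on chromosome 1, of which NOTCH2NLA, the one matched by symbol, was at 0.0201 CPM at most, so how reads were split between them cannot be seen here.

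The epithelial markers EPCAM and CDH1 were high in MKN7 and NCI-N87, where CDH1 had median levels of 243 and 256 CPM, and low in MKN1 and Hs746T, with median CDH1 levels of 1.998 and 0.785 CPM. The keratins KRT8 and KRT18, from the same list, had their highest medians in MKN1 (11066 and 2984 CPM) and their lowest in Hs746T (342 and 150.04 CPM). The mesenchymal marker VIM had median levels of 559 CPM in MKN1 and 1595 CPM in Hs746T, against 3.74 CPM in MKN7 and 4.17 CPM in NCI-N87, but FN1 was close in MKN1 and MKN7 (677 and 624 CPM) and CDH2 was lower in MKN1 than in MKN7 (0.399 and 0.657 CPM). The medians of the summed mesenchymal markers were 3773 CPM in Hs746T, 1188 CPM in MKN1, 637 CPM in MKN7 and 249.7 CPM in NCI-N87. Over the whole lists, the summed epithelial markers ran from 438 to 738 CPM in Hs746T and from 4311 to 25137 CPM in the other cell lines. The summed endothelial markers ran from 80.1 to 275 CPM in Hs746T, nearly all of it PECAM1, and did not exceed 27.7 CPM elsewhere. The endothelial marker CDH5 and the leukocyte marker PTPRC did not exceed 0.793 CPM in any library, whereas VWF reached 2.97 CPM in NCI-N87. The summed leukocyte markers ran from 2.86 to 9.29 CPM in MKN1, mostly CD14, and from 0.0730 to 1.58 CPM in the other cell lines. The part of these markers in the results below was not tested. In bulk RNA, fewer cells of a type and less RNA per cell cannot be told apart.

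Without treatment, the levels of the Notch genes differed between the cell lines (mean ± SD of 6 libraries, 3 at 4 h and 3 at 24 h). NCI-N87 held the most NOTCH3, JAG1 and HES1, MKN1 the most JAG2 and DLL1, and Hs746T the most HEY1 and NOTCH2. In each pair of cell lines, 7 to 9 of the 9 genes differed at an adjusted p below 0.05, but so did most genes. MKN1 and MKN7 differed in 8 of 9 genes against 75.8% of all genes tested, MKN1 and NCI-N87 in 8 against 78.7%, and MKN1 and Hs746T in 7 against 79.9%. MKN7 and NCI-N87 differed in 9 against 76.8%, MKN7 and Hs746T in 8 against 78.2%, and NCI-N87 and Hs746T in 7 against 79.6%. These tests count the 4 h and 24 h libraries of a cell line as separate samples.

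**Figure D1:**
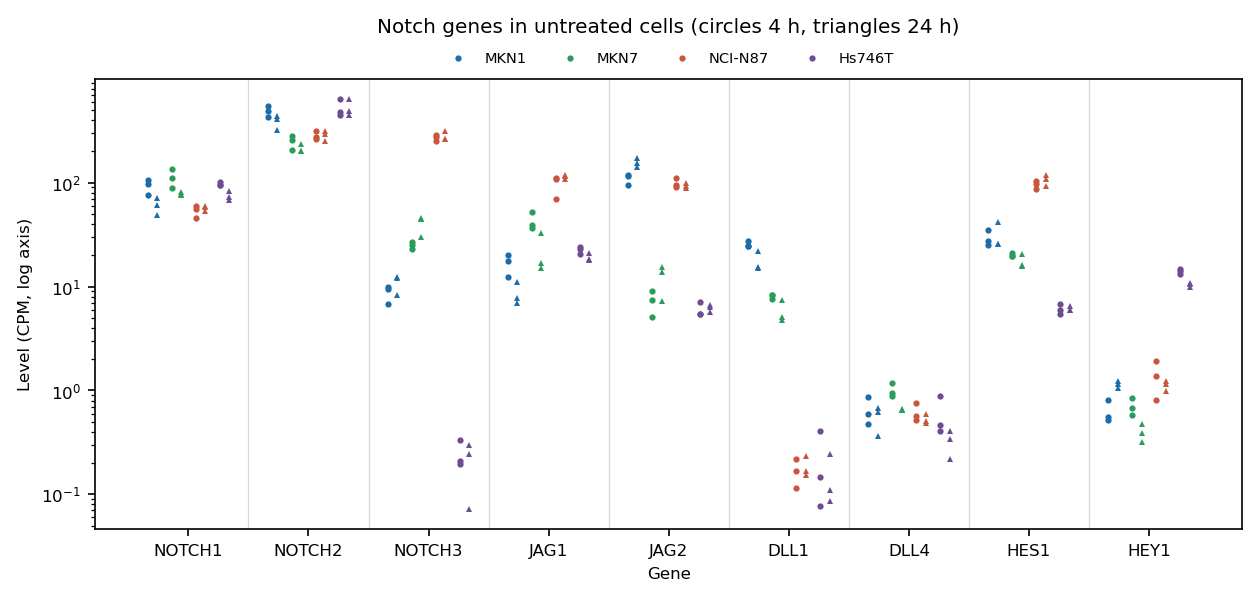
Levels of the 9 genes in untreated cells in CPM on a log axis, with 1 point for each of 24 libraries (3 replicates, 4 cell lines, 4 h and 24 h). NOTCH3 spans from 0.0730 CPM in an Hs746T library to 311 CPM in an NCI-N87 library, whereas NOTCH2 stays between 199 and 633 CPM.

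NOTCH3 varied most among the receptors. It stood at 274.9 ± 21.5 CPM in NCI-N87, 32.5 ± 9.96 CPM in MKN7, 9.83 ± 2.19 CPM in MKN1 and 0.227 ± 0.0921 CPM in Hs746T, where single libraries held 2 to 18 counts. All 6 differences between cell lines passed the test, and NCI-N87 exceeded Hs746T by 10.15 ± 0.19 on the log2 scale (SE, adjusted p = 7.05e-22, edgeR's quasi-likelihood test). NOTCH2 was the most even receptor, with 519.9 ± 88.8 CPM in Hs746T, 437 ± 75.5 CPM in MKN1, 285 ± 27.8 CPM in NCI-N87 and 229.5 ± 33.2 CPM in MKN7. Its neighbours in this order lay close. Hs746T exceeded MKN1 with an adjusted p of 0.0404, which rose to 0.223 without replicate 2 and to 0.0789 without replicate 1. NCI-N87 exceeded MKN7 with an adjusted p of 0.0110, which rose to 0.0937 without replicate 3. NOTCH1 had its lowest level in NCI-N87 (55.2 ± 5.30 CPM) and stood at 76.7 ± 21.99 CPM in MKN1, 85.8 ± 13.2 CPM in Hs746T and 95.0 ± 23.8 CPM in MKN7. NOTCH1 did not pass the test between Hs746T and MKN7 (adjusted p = 0.307) or between MKN1 and Hs746T (0.117), and its difference between MKN1 and MKN7 (0.0132) was lost without replicate 2 (0.191) and with libraries scaled by size alone (0.0528).

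Among the ligands, JAG1 reached 105 ± 17.9 CPM in NCI-N87, 32.03 ± 13.99 CPM in MKN7, 20.8 ± 2.45 CPM in Hs746T and 12.7 ± 5.31 CPM in MKN1. JAG2 ordered the cell lines differently, with 133 ± 28.9 CPM in MKN1, 96.4 ± 7.54 CPM in NCI-N87, 9.69 ± 4.10 CPM in MKN7 and 6.12 ± 0.701 CPM in Hs746T. All differences of JAG1 and JAG2 between cell lines passed the test, but between MKN7 and Hs746T JAG1 (adjusted p = 0.00729) was lost without replicate 3 (0.125) and JAG2 (9.43e-04) without replicate 1 (0.124). DLL1 was present in MKN1 (21.6 ± 5.25 CPM) and MKN7 (6.96 ± 1.59 CPM) and near the limit of counting in Hs746T (0.180 ± 0.129 CPM) and NCI-N87 (0.176 ± 0.0442 CPM), where a library held 3 to 22 counts. For comparison, 3 counts amount to 0.0432 CPM in the deepest library and 0.116 CPM in the shallowest. DLL1 did not differ by the test between NCI-N87 and Hs746T, with a log2 difference of -0.07 and a 95% interval of -0.77 to 0.64. DLL4, the ligand best known from blood vessel cells, was low everywhere, with means of 0.453 to 0.831 CPM, and MKN7 alone exceeded other cell lines in it (adjusted p = 0.0336 against NCI-N87 and 0.00134 against Hs746T). The first of these was lost without replicate 1 (0.143), without replicate 2 (0.133) and with libraries scaled by size alone (0.0510).

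The target genes ordered the cell lines differently. HES1 stood at 102 ± 11.7 CPM in NCI-N87, 30.1 ± 6.85 CPM in MKN1, 18.9 ± 2.25 CPM in MKN7 and 6.08 ± 0.462 CPM in Hs746T. HEY1 stood at 12.3 ± 2.10 CPM in Hs746T and at 1.24 ± 0.376 CPM in NCI-N87, 0.885 ± 0.307 CPM in MKN1 and 0.545 ± 0.191 CPM in MKN7. All 6 differences between cell lines passed the test for HES1 and for HEY1, and the one between MKN1 and NCI-N87 in HEY1 (adjusted p = 0.00843) was lost without replicate 2 (0.257). Per kilobase of exon, which allows a comparison between genes, HES1 stood at 49.4 CPM per kb in NCI-N87 and HEY1 at 0.385, whereas in Hs746T HEY1 stood at 3.80 CPM per kb and HES1 at 2.95. On the same scale NOTCH3 was the leading receptor in NCI-N87, with 29.3 CPM per kb against 16.98 for NOTCH2 and 5.32 for NOTCH1, and NOTCH2 led in MKN1, MKN7 and Hs746T, with 26.02, 13.7 and 30.9 CPM per kb.

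Afatinib was tested against untreated cells at both time points to find which Notch genes followed inhibition of EGFR and HER2. JAG1 and HES1 fell in MKN1, MKN7 and NCI-N87, DLL1 fell in MKN1 and MKN7 and rose in NCI-N87, and JAG2 rose in MKN7. NOTCH1 also fell in MKN1, MKN7 and NCI-N87 and NOTCH2 in MKN7 and NCI-N87, with calls in MKN1 and MKN7 that were lost in some alternatives (below). NOTCH3 rose and JAG2 and HEY1 fell in NCI-N87 at 24 h, also with calls lost in some alternatives. No member passed the test in Hs746T. In MKN1 at 4 h, 3 of 9 genes fell and 0 rose, against 2.41% of all genes lower and 1.27% higher. In MKN1 at 24 h, again 3 fell and 0 rose, against 13.3% lower and 12.2% higher. In MKN7, 4 fell and 0 rose at 4 h (12.1% lower and 10.1% higher among all genes), and 5 fell and 1 rose at 24 h (25% lower and 26.6% higher). In NCI-N87, 2 fell and 0 rose at 4 h (9.10% lower and 9.06% higher), and 6 fell and 2 rose at 24 h (31% lower and 31.5% higher). The median log2FC of the 9 genes was -0.08, -0.36 and -0.22 at 4 h in MKN1, MKN7 and NCI-N87 and -0.27, -0.36 and -0.65 at 24 h, with medians over all genes of 0.01 to 0.04.

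**Figure D2:**
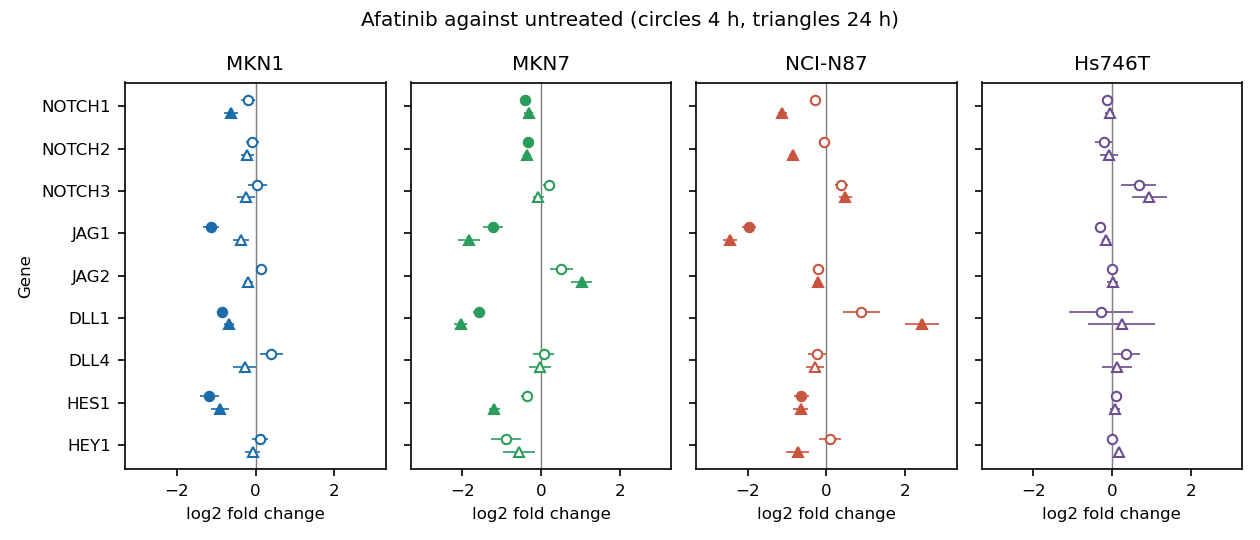
Log2FC of the 9 genes after afatinib against untreated cells, with SE as bars, in 4 cell lines at 4 h (circles) and 24 h (triangles). Filled symbols passed an adjusted p of 0.05, and all symbols of Hs746T are open.

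The ligand JAG1 had its most negative log2FC in NCI-N87, although not all differences from MKN7 and MKN1 passed a test (below). At 24 h JAG1 levels in NCI-N87 were 115, 118 and 108 CPM in the untreated libraries and 22.8, 18.6 and 22.7 CPM after afatinib. At 4 h they were 109.9, 109 and 69.3 CPM in the untreated libraries and 26.1, 26.9 and 20.9 CPM after afatinib. At both times all 3 afatinib libraries lay below all 3 untreated libraries, with a log2FC of -1.96 ± 0.17 at 4 h (SE, adjusted p = 5.48e-08) and -2.44 ± 0.18 at 24 h (adjusted p = 1.16e-10). In MKN7 JAG1 went from 38.8, 36.99 and 51.7 CPM to 20.5, 18.4 and 17.3 CPM at 4 h (log2FC -1.22 ± 0.26, adjusted p = 0.00171). At 24 h it went from 15.1, 16.7 and 32.95 CPM to 6.45, 5.79 and 6.23 CPM (log2FC -1.82 ± 0.28, adjusted p = 1.39e-05). The groups did not overlap at either time, although the third untreated library at 24 h held more JAG1 than the others. Here and below, overlap is a description, since the share of all genes without overlap was not counted.

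In MKN1, JAG1 passed the test at 4 h and not at 24 h, and the difference between the times was not tested. At 4 h the untreated libraries held 17.8, 12.4 and 20.1 CPM and the afatinib libraries 8.53, 6.67 and 8.22 CPM (log2FC -1.12 ± 0.20, adjusted p = 4.37e-04). This call was lost without replicate 1 (adjusted p = 0.0677) and without replicate 3 (0.0506). At 24 h the untreated libraries were themselves low, at 7.79, 6.97 and 11.02 CPM, and the afatinib libraries held 7.82, 6.04 and 6.28 CPM. The groups overlapped and the log2FC of -0.37 ± 0.20 did not pass the test (adjusted p = 0.183), whereas with the replicate number as a block it did (0.0492), in a fit that called 40.4% of all genes against 25.6% without the block.

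The ligand DLL1 moved in opposite directions. In MKN7 it fell from 8.32, 7.67 and 8.35 CPM to 3.13, 2.28 and 3.02 CPM at 4 h (log2FC -1.57 ± 0.15, adjusted p = 2.59e-07). In the same cell line at 24 h it fell from 5.12, 4.79 and 7.48 CPM to 1.37, 1.31 and 1.55 CPM (log2FC -2.04 ± 0.16, adjusted p = 5.85e-09). In MKN1 it fell from 24.5, 24.8 and 27.7 CPM to 12.96, 14.6 and 15.9 CPM at 4 h (log2FC -0.84 ± 0.13, adjusted p = 5.39e-05) and from 14.99, 15.4 and 21.96 CPM to 11.7, 9.41 and 11.9 CPM at 24 h (log2FC -0.68 ± 0.13, adjusted p = 1.84e-04). In all of these comparisons the groups did not overlap. In NCI-N87, where untreated DLL1 was close to the limit of counting, the libraries at 24 h held 12, 8 and 7 counts without treatment and 65, 55 and 52 counts after afatinib. These counts are 0.233, 0.168 and 0.155 CPM and 1.14, 0.977 and 0.982 CPM, and the log2FC was 2.42 ± 0.43 (adjusted p = 4.01e-05). At 4 h the difference of 0.88 ± 0.47 in NCI-N87 did not pass the test (adjusted p = 0.224).

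JAG2, the second Jagged ligand, rose in MKN7 at 24 h from 15.6, 13.8 and 7.29 CPM to 28.7, 25.4 and 21.3 CPM (log2FC 1.03 ± 0.27, adjusted p = 0.00261). At 4 h in MKN7 it stood at 9.08, 7.34 and 5.11 CPM without treatment and at 12.5, 10.2 and 8.87 CPM after afatinib, which overlapped (adjusted p = 0.201). Each afatinib library exceeded the untreated library of the same number, and with the replicate number as a block the adjusted p was 0.00132. In MKN1 JAG2 showed a log2FC of 0.15 ± 0.12 at 4 h and -0.18 ± 0.12 at 24 h (adjusted p = 0.675 and 0.314, and 0.125 and 0.0213 with the block). In NCI-N87 at 24 h the change of JAG2 from 93.8 ± 5.52 to 82.6 ± 9.64 CPM (SD, n = 3) was small, and its log2FC of -0.22 ± 0.09 passed the test by little (adjusted p = 0.0439). It was kept in 1 of 9 alternative settings and turned to 0.04 when libraries were scaled by size alone. At 4 h the log2FC in NCI-N87 was also -0.22 ± 0.09 and did not pass (adjusted p = 0.105), whereas with the block it did (0.0485). DLL4 did not pass the test in any cell line, with levels from 0.288 to 1.44 CPM in the untreated and afatinib libraries of MKN1, MKN7 and NCI-N87.

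Among the receptors, NOTCH1 and NOTCH2 fell in NCI-N87 at 24 h and in MKN7, and NOTCH3 rose in NCI-N87 at 24 h. In NCI-N87 at 24 h NOTCH1 went from 53.5, 59.9 and 57.7 CPM to 27.7, 26.9 and 25.7 CPM (log2FC -1.12 ± 0.11, adjusted p = 1.18e-08). NOTCH2 went there from 249.6, 292 and 316 CPM to 153, 168 and 162 CPM (log2FC -0.86 ± 0.10, adjusted p = 2.31e-07). NOTCH3 rose from 262, 311 and 263 CPM to 359.7, 470.1 and 364 CPM (log2FC 0.48 ± 0.16, adjusted p = 0.0125). For all 3 receptors the libraries of the groups did not overlap, and NOTCH3 was lost without replicate 1 (adjusted p = 0.0712). At 4 h in NCI-N87 the log2FC was -0.28 for NOTCH1, -0.06 for NOTCH2 and 0.38 for NOTCH3 (adjusted p = 0.0729, 0.764 and 0.117), and with the block NOTCH1 (0.0174) and NOTCH3 (3.28e-04) passed.

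In MKN7 the changes of NOTCH1 and NOTCH2 were small. At 24 h NOTCH1 went from 78.2 ± 2.83 to 63.1 ± 8.07 CPM (log2FC -0.31 ± 0.12, adjusted p = 0.0392) and NOTCH2 from 212 ± 21.98 to 166 ± 8.36 CPM (log2FC -0.36 ± 0.10, adjusted p = 0.00629). At 4 h the log2FC was -0.40 ± 0.12 for NOTCH1 (adjusted p = 0.0232) and -0.33 ± 0.10 for NOTCH2 (0.0253), with overlapping libraries. Leaving out replicate 3 took the adjusted p of NOTCH1 to 0.272 at 4 h and 0.0547 at 24 h and that of NOTCH2 to 0.340 and 0.0517. Leaving out replicate 2 took NOTCH1 to 0.0854 and 0.233. With libraries scaled by size alone both genes were lost at both times, NOTCH1 with an adjusted p of 0.0658 at 4 h and 0.184 at 24 h (log2FC -0.20) and NOTCH2 with 0.116 and 0.0696. At 4 h NOTCH1 (0.0580) and NOTCH2 (0.0900) were also lost in a fit of the compared groups alone and NOTCH2 (0.0515) with no filter on low counts, and at 24 h NOTCH1 (0.0534) was lost among genes with at least 10 counts in every library. In MKN1 NOTCH1 fell at 24 h from 60.6, 48.4 and 71.0 CPM to 48.3, 33.4 and 36.2 CPM (log2FC -0.63 ± 0.18, adjusted p = 0.0106), and this rested on replicate 3, without which the log2FC was -0.43 and the adjusted p 0.391. NOTCH2 and NOTCH3 did not pass in MKN1 (24 h, adjusted p = 0.412 and 0.499), whereas with the block they did (0.0499 and 0.0440). NOTCH3 in MKN7 had a log2FC of 0.20 at 4 h (adjusted p = 0.388, and 0.0441 with the block) and -0.07 at 24 h.

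The target HES1 fell in all 3 of these cell lines. In MKN1 at 4 h its levels were 25.1, 27.4 and 35.1 CPM without treatment and 11.8, 13.6 and 13.8 CPM after afatinib (log2FC -1.17 ± 0.24, adjusted p = 0.00210, and 0.0818 without replicate 2). At 24 h they were 25.5, 25.7 and 41.8 CPM and 14.4, 16.8 and 19.01 CPM (log2FC -0.91 ± 0.23, adjusted p = 0.00397). In MKN7 HES1 passed the test at 24 h only. It went from 20.9, 19.8 and 19.7 CPM to 17.9, 13.3 and 17.1 CPM at 4 h (log2FC -0.36 ± 0.14, adjusted p = 0.0585, and 0.00553 with the block) and from 15.9, 16.2 and 20.8 CPM to 7.86, 6.93 and 8.43 CPM at 24 h (log2FC -1.19 ± 0.14, adjusted p = 5.29e-07). No library of one group reached the other group in any of these 4 comparisons.

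In NCI-N87, where HES1 was highest, the fall was of a similar size at both times. At 4 h HES1 went from 98.0, 87.4 and 105 CPM to 68.5, 52.2 and 64.5 CPM (log2FC -0.64 ± 0.19, adjusted p = 0.0189). At 24 h it went from 119, 92.3 and 109 CPM to 84.0, 52.8 and 72.2 CPM (log2FC -0.65 ± 0.19, adjusted p = 0.00468). The groups did not overlap, but the calls were lost without replicate 3 (adjusted p = 0.183 at 4 h and 0.0670 at 24 h) and at 4 h without replicate 1 (0.0710). With libraries scaled by size alone the log2FC at 24 h was -0.39 and did not pass (0.0565). HEY1 fell in NCI-N87 at 24 h from 1.13 ± 0.126 to 0.693 ± 0.0923 CPM (log2FC -0.73 ± 0.29, adjusted p = 0.0307), a call kept in 3 of 9 alternative settings and lost without any 1 of the replicates (0.0574 to 0.146) and with libraries scaled by size alone (log2FC -0.48, 0.168). In MKN7 HEY1 stood below 1 CPM in all libraries and had a log2FC of -0.89 ± 0.38 at 4 h (adjusted p = 0.104, and 0.0439 with the block).

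**Figure D3:**
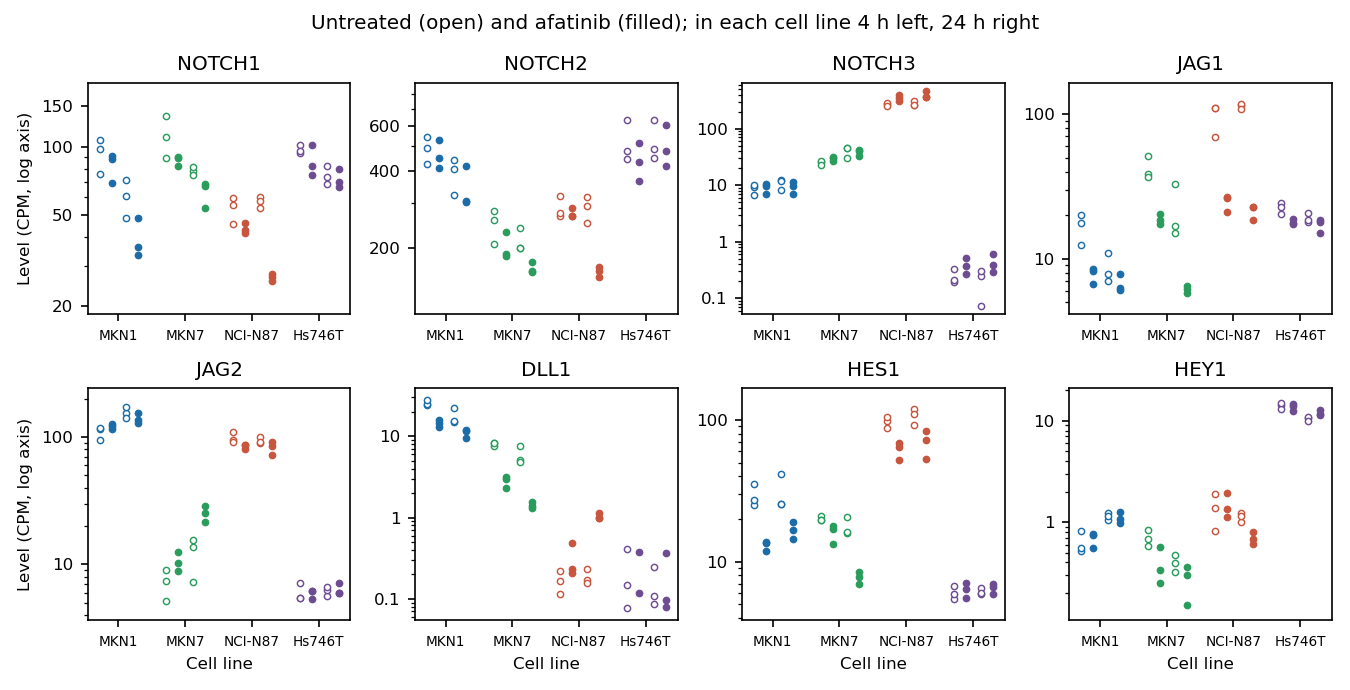
Levels of 8 of the genes in CPM on log axes, 1 point per library, in untreated cells (open) and after afatinib (filled), with 4 h left and 24 h right in each cell line. JAG1, DLL1 and HES1 separate by treatment in MKN7 at 24 h, whereas no gene passed the test in Hs746T; 1 afatinib library of Hs746T with 0 counts of DLL1 has no point.

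In Hs746T no member passed the test after any treatment. Over the 12 comparisons of a treatment with untreated cells in Hs746T, 0 of 108 member tests passed an adjusted p of 0.05 in edgeR, and 0.00% of all gene tests did. At an unadjusted p below 0.05 there were 6 of the 108, beside 4449 of 224004 tests of all genes. DESeq2 called 0 of the members and 4 over all genes, and edgeR with the replicate block called 0 and 45. HES1 stood at 6.03 ± 0.662 CPM without treatment and 6.34 ± 0.749 CPM after 4 h of afatinib, and at 6.13 ± 0.295 and 6.4997 ± 0.500 CPM at 24 h. JAG1 stood at 22.5 ± 1.86 and 17.9 ± 0.720 CPM at 4 h, where the groups did not overlap (log2FC -0.29 ± 0.10, adjusted p = 0.678), and at 19.1 ± 1.57 and 17.2 ± 1.85 CPM at 24 h. HEY1, which is highest in this cell line, had a log2FC of -0.01 ± 0.08 at 4 h and 0.18 ± 0.08 at 24 h. At 24 h its untreated libraries (10.6, 10.8 and 9.94 CPM) lay below the afatinib libraries (12.8, 11.4 and 11.6 CPM), with an adjusted p of 1. NOTCH3 (0.95 ± 0.45 at 24 h) and DLL1 rested on few counts in Hs746T.

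Trastuzumab alone gave 0 called members in 72 tests over 4 cell lines and both times, against 0.00% of all gene tests. At an unadjusted p below 0.05 there were 3, beside 3330 of 152086 tests of all genes. DESeq2 called 0 of the members and 2 over all genes. Adding trastuzumab to afatinib gave 0 of 72 as well, also against 0.00%. Here 2 had an unadjusted p below 0.05, beside 1184 of 152086 over all genes, and DESeq2 called 0 members and 0 over all genes. After Tra+Afa, JAG1 stood at 20.7 CPM in NCI-N87 and 6.06 CPM in MKN7 at 24 h, beside 21.4 and 6.15 CPM after afatinib alone. HES1 stood at 65.3 CPM in NCI-N87 and 8.65 CPM in MKN7 at 24 h, beside 69.7 and 7.74 CPM after afatinib alone, and DLL1 stood at 10.4 CPM in MKN1 beside 10.999 CPM.

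The effect of afatinib was compared between cell lines by the interaction of treatment and cell line in a fit of all libraries, in which each member had its own test of the difference. DLL1 differed most, with a fall in MKN7 and a rise in NCI-N87 at 24 h that differed on the log2 scale by -4.49 ± 0.51 (MKN7 minus NCI-N87, SE, adjusted p = 6.10e-12). For MKN1 minus NCI-N87 the difference was -3.12 ± 0.50 (adjusted p = 2.35e-07). The log2FC of JAG1 at 24 h was less negative in MKN1 than in MKN7 (difference 1.46 ± 0.29, adjusted p = 1.68e-04) and than in NCI-N87 (2.06 ± 0.28, 4.27e-09). The log2FC of JAG2 at 24 h was higher in MKN7 than in MKN1 (MKN1 minus MKN7 -1.20 ± 0.23, adjusted p = 1.26e-04), NCI-N87 (MKN7 minus NCI-N87 1.22 ± 0.23, 2.05e-05) and Hs746T (MKN7 minus Hs746T 1.01 ± 0.24, 0.00114). The effect on HES1 differed from that in Hs746T in MKN1 at 4 h (-1.23 ± 0.27, adjusted p = 0.00797) and 24 h (-0.97 ± 0.27, 0.0170), in MKN7 at 24 h (-1.27 ± 0.27, 1.93e-04) and in NCI-N87 at 24 h (-0.70 ± 0.26, 0.0294).

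At 4 h the effects on DLL1 also differed between MKN7 and NCI-N87 (-2.40 ± 0.57, adjusted p = 0.0112), a call lost without replicate 1 (0.0540), replicate 2 (0.381) and replicate 3 (0.0722). The difference was -2.25, -2.33 and -2.64 in these fits, and with the replicate number as a block it passed (1.56e-05). Compared with Hs746T, the log2FC of JAG1 was lower in NCI-N87 at 4 h (-1.63 ± 0.28, adjusted p = 7.89e-06) and at 24 h (-2.26 ± 0.28, 4.96e-11) and in MKN7 at 24 h (-1.66 ± 0.28, 3.71e-06).

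The receptors differed in NCI-N87 at 24 h. The log2FC of NOTCH1 was lower there than in MKN7 (MKN7 minus NCI-N87 0.78 ± 0.21, adjusted p = 0.00344) and Hs746T (-1.04 ± 0.21, 3.33e-05), that of NOTCH2 was lower than in Hs746T (-0.77 ± 0.26, 0.0159), and that of NOTCH3 was higher than in MKN1 (MKN1 minus NCI-N87 -0.74 ± 0.29, 0.0474). Without replicate 3, NOTCH1 against MKN7 (0.152), NOTCH2 (0.260) and NOTCH3 (0.158) were lost, and so were HES1 in NCI-N87 (0.169) and HES1 in MKN1 at 24 h (0.468) against Hs746T. Without replicate 2, NOTCH2 (0.0622), NOTCH3 (0.0854), and HES1 in NCI-N87 (0.205) and in MKN1 at 24 h (0.0996) were lost, and NOTCH3 was also lost without replicate 1 (0.113). HES1 in MKN1 at 4 h was lost without replicate 1 (0.0683), replicate 2 (0.241) and replicate 3 (0.108). Its difference from Hs746T stayed at -1.27, -1.24 and -1.22 in these fits, and with the replicate number as a block it passed (8.94e-07). With libraries scaled by size alone, NOTCH2 (0.101) and HES1 (0.164) in NCI-N87 against Hs746T were lost.

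Counted by pair, 0 of 9 members differed between MKN1 and MKN7 at 4 h against 1.38% of all genes, and 3 differed at 24 h against 7.61%. Between MKN1 and NCI-N87, 0 differed at 4 h against 1.83%, and 3 at 24 h against 28%. Between MKN1 and Hs746T, 1 differed at 4 h against 0.372%, and 1 at 24 h against 4.41%. Between MKN7 and NCI-N87, 1 differed at 4 h against 1.01%, and 3 at 24 h against 21.4%. Between MKN7 and Hs746T, 0 differed at 4 h against 5.30%, and 4 at 24 h against 18.8%. Between NCI-N87 and Hs746T, 1 differed at 4 h against 6.74%, and 6 at 24 h against 35.1%. With the replicate number as a block the counts at 4 h were 2, 4, 2, 3, 3 and 2 in the same order, against 7.04%, 7.51%, 6.14%, 5.55%, 16.5% and 20% of all genes in the same fit. At 24 h with the block 3 differed between MKN1 and MKN7 (20.9% of all genes), 5 between MKN1 and NCI-N87 (41.3%), 3 between MKN1 and Hs746T (17%), 7 between MKN7 and NCI-N87 (34.8%), 5 between MKN7 and Hs746T (32.3%) and 6 between NCI-N87 and Hs746T (45.7%).

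EGF and cetuximab were compared in MKN1 to see the genes under activation and blocking of EGFR. EGF raised JAG1 and DLL1 and lowered JAG2, and cetuximab lowered HES1 and DLL1 at both times and JAG1 at 4 h. After EGF at 4 h, 2 of 9 genes rose and 1 fell, against 4.37% higher and 2.45% lower among all genes. At 24 h, 3 rose and 1 fell, against 17.3% higher and 18.5% lower. After cetuximab at 4 h, 3 fell and 0 rose, against 1.15% lower and 0.288% higher. At 24 h, 2 fell and 0 rose, against 5.91% lower and 4.92% higher. The comparisons with EGF, cetuximab and afatinib share the same untreated libraries.

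**Figure D4:**
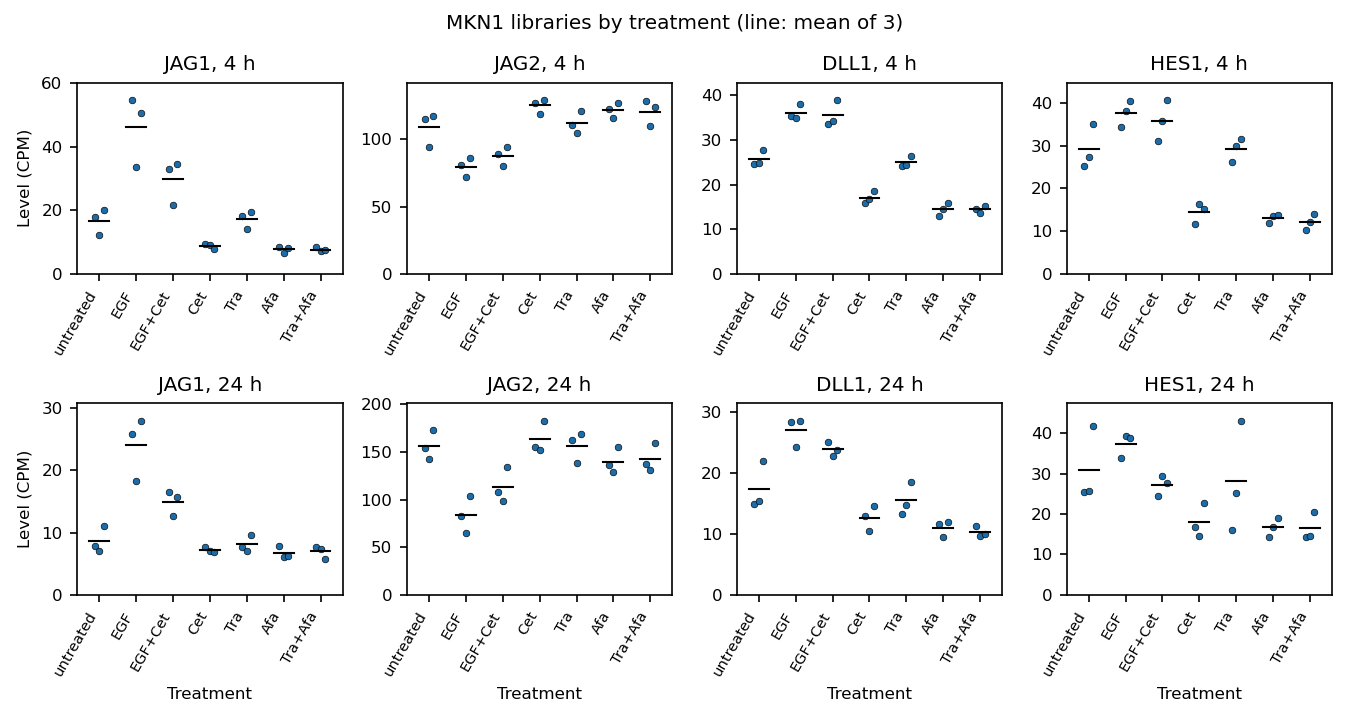
Levels of JAG1, JAG2, DLL1 and HES1 in MKN1 in CPM, 1 point per library with the mean of 3 as a line, by treatment at 4 h (top) and 24 h (bottom). JAG1 is highest after EGF at both times, and JAG2 is lowest there.

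JAG1 rose after EGF from 17.8, 12.4 and 20.1 CPM to 54.6, 33.7 and 50.4 CPM at 4 h (log2FC 1.47 ± 0.19, adjusted p = 1.65e-06). At 24 h it rose from 7.79, 6.97 and 11.02 CPM to 25.8, 18.3 and 28.004 CPM (log2FC 1.5 ± 0.20, adjusted p = 4.25e-07). The second EGF library was the lowest of its group at both times, yet above all untreated libraries. After cetuximab JAG1 stood at 9.25, 8.93 and 7.69 CPM at 4 h (log2FC -0.96 ± 0.20, adjusted p = 0.00442), a call lost without replicate 1 (0.251), without replicate 3 (0.337) and in a fit of the compared groups alone (0.0571). At 24 h the log2FC after cetuximab was -0.27 ± 0.20 (adjusted p = 0.425).

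JAG2 went the other way after EGF. It fell from 115, 94.5 and 117 CPM to 81.0, 71.9 and 86.4 CPM at 4 h (log2FC -0.44 ± 0.12, adjusted p = 0.0243, and 0.459 without replicate 1). At 24 h it fell from 154, 143 and 173 CPM to 83.0, 65.2 and 103 CPM (log2FC -0.88 ± 0.13, adjusted p = 1.42e-06), and the groups did not overlap at either time. After cetuximab JAG2 had a log2FC of 0.20 ± 0.12 at 4 h and 0.04 ± 0.12 at 24 h (adjusted p = 0.646 and 0.875).

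DLL1 rose after EGF from 24.5, 24.8 and 27.7 CPM to 35.3, 34.9 and 37.95 CPM at 4 h (log2FC 0.50 ± 0.13, adjusted p = 0.00958, and 0.192 without replicate 1, 0.0873 without replicate 2 and 0.0641 with libraries scaled by size alone). After 24 h it rose from 14.99, 15.4 and 21.96 CPM to 28.4, 24.2 and 28.6 CPM (log2FC 0.65 ± 0.13, adjusted p = 1.41e-04). After cetuximab it stood at 15.9, 16.8 and 18.4 CPM at 4 h (log2FC -0.59 ± 0.13, adjusted p = 0.00758) and at 12.9, 10.5 and 14.6 CPM at 24 h (log2FC -0.48 ± 0.13, adjusted p = 0.0139). Both cetuximab calls were lost without replicate 2 (0.125 and 0.114), the first also without replicate 1 (0.238) and the second also without replicate 3 (0.110). With libraries scaled by size alone neither passed (0.05 and 0.0579), and the second was lost in a fit of the compared groups alone (0.108). In these 4 comparisons of DLL1 the treated and untreated libraries did not overlap.

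HES1 fell after cetuximab to 11.7, 16.4 and 15.2 CPM at 4 h (log2FC -1.02 ± 0.24, adjusted p = 0.0154) and to 16.8, 14.5 and 22.6 CPM at 24 h (log2FC -0.81 ± 0.23, adjusted p = 0.0222), below all untreated libraries. The call at 4 h was lost without replicate 1 (0.117) and replicate 2 (0.174), and that at 24 h without replicate 2 (0.165) and replicate 3 (0.0590). After EGF HES1 stood at 37.5 ± 3.08 CPM at 4 h and 37.4 ± 3.05 CPM at 24 h, which overlapped the untreated 29.2 ± 5.23 and 31.004 ± 9.36 CPM (log2FC 0.37 and 0.29, adjusted p = 0.461 and 0.340). NOTCH1 after EGF passed the test at 24 h, with 81.4 ± 16.95 against 60.03 ± 11.3 CPM (log2FC 0.46 ± 0.18, adjusted p = 0.0489), although the libraries overlapped and the call was lost without replicate 1 (0.333), replicate 3 (0.144), with libraries scaled by size alone (log2FC 0.27, 0.263) and in a fit of the compared groups alone (0.0730). With the replicate number as a block, NOTCH1 also rose after EGF at 4 h (0.00893, against 0.320 without it) and fell after cetuximab at 24 h (0.00551, against 0.180).

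Cetuximab added to EGF gave 0 of 9 called members at 4 h, against 0.701% of all genes, and 0 of 9 at 24 h, against 0.646%. Of the 18 tests 4 had an unadjusted p below 0.05, beside 3400 of 39630 tests of all genes. DESeq2 called 1 of the 18, beside 482 over all genes. JAG1 stood at 32.97, 21.6 and 34.5 CPM after EGF+Cet at 4 h (log2FC against EGF -0.64 ± 0.19, adjusted p = 0.158) and at 16.5, 12.6 and 15.7 CPM at 24 h (-0.70 ± 0.19, adjusted p = 0.0876). With the replicate number as a block these passed (0.00148 and 8.60e-04), as did JAG2 (2.64e-05) and HES1 (0.0430) at 24 h. In Hs746T, JAG1 stood at 22.5 ± 1.86 CPM untreated, 21.8 ± 4.13 CPM after EGF and 21.4 ± 2.06 CPM after cetuximab at 4 h.

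Untreated cells were also compared between the time points, since these libraries are the base of all other comparisons. In MKN1, 3 of 9 genes were lower at 24 h and 2 were higher, against 16.4% lower and 17.7% higher among all genes. JAG1 (log2FC -0.99 ± 0.20, adjusted p = 1.95e-04), NOTCH1 (-0.66 ± 0.18, 0.00489) and DLL1 (-0.58 ± 0.13, 5.88e-04) were lower, and JAG2 (0.50 ± 0.12, 0.00193) and HEY1 (0.83 ± 0.20, 0.00171) were higher. Without replicate 1 NOTCH1 (0.0826) and JAG2 (0.0601) were lost, and without replicate 3 NOTCH1 (0.0600) and HEY1 (0.0553). In MKN7, 3 were lower and 1 was higher, against 9.43% and 6.96%. JAG1 (log2FC -1.01 ± 0.26, adjusted p = 0.0115), NOTCH1 (-0.55 ± 0.12, 0.00487) and DLL1 (-0.52 ± 0.15, 0.0202) were lower and NOTCH3 (0.65 ± 0.15, 0.00491) was higher, and without replicate 2 all 4 calls were lost (0.140, 0.0602, 0.173 and 0.0970). Without replicate 1 JAG1 (0.150), DLL1 (0.291) and NOTCH3 (0.135) were lost, and without replicate 3 NOTCH1 (0.0613). In a fit of the compared groups alone DLL1 (0.131), NOTCH1 (0.0595) and JAG1 (0.0689) were lost, and with no filter on low counts DLL1 (0.0547).

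In NCI-N87, 0 of 9 genes differed between the time points, against 0.189% lower and 0.0786% higher, with the lowest adjusted p at 0.712. In Hs746T, 1 was lower and 0 were higher, against 0.798% and 0.686%. This was HEY1, with 14.2, 13.2 and 14.9 CPM at 4 h and 10.6, 10.8 and 9.94 CPM at 24 h (log2FC -0.41 ± 0.08, adjusted p = 0.00318). The call was lost without replicate 2 (0.0521), without replicate 3 (0.655), with no filter on low counts (0.0631) and in a fit of the compared groups alone (0.316). The sample numbers restart between the 4 h and the 24 h libraries of replicate 2 in Hs746T. The same restart separates replicate 3 from replicates 1 and 2 in MKN1, and replicate 1 from replicates 2 and 3 in MKN7 and NCI-N87. What this break marks is not stated, and its part here was not tested. With the replicate number as a block, NOTCH1 (0.00857) and JAG1 (0.0250) were lower in Hs746T as well, NOTCH2 was lower in MKN1 (0.00133) and MKN7 (0.00320), NOTCH3 was higher in MKN1 (0.00975), and JAG2 was higher in MKN7 (1.15e-04).

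The pathway list held 48 further genes, of which 41 to 45 were tested in each cell line. After afatinib, 1 of 44 rose and 1 fell in MKN1 at 4 h, where 3.68% of all genes changed, and 4 rose and 4 fell at 24 h, where 25.6% did. In MKN7, 3 of 45 rose and 7 fell at 4 h (22.2% of all genes changed), and 10 rose and 8 fell at 24 h (51.6%). In NCI-N87, 6 of 45 rose and 4 fell at 4 h (18.2%), and 16 rose and 16 fell at 24 h (62.5%). None of 41 passed in Hs746T at either time, by edgeR. After EGF in MKN1, 3 of 44 rose and 0 fell at 4 h (6.82% of all genes changed), and 7 rose and 8 fell at 24 h (35.8%). After cetuximab, 0 passed at 4 h (1.43%), and 1 rose and 2 fell at 24 h (10.8%). The median log2FC of the list lay between -0.04 and 0.12 in these comparisons.

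The list also held NRARP and other genes of the HES and HEY families, and whether these follow Notch in these cells was not tested. NRARP, which encodes a small repeat protein that binds the Notch complex and dampens it, fell after afatinib in 3 cell lines at 24 h. It went from 44.3 ± 4.797 to 17.8 ± 0.774 CPM in NCI-N87 (log2FC -1.35 ± 0.17, adjusted p = 5.36e-07), from 20.6 ± 5.47 to 8.78 ± 2.09 CPM in MKN7 (-1.23 ± 0.21, 6.28e-05) and from 5.60 ± 0.707 to 3.72 ± 0.115 CPM in MKN1 (-0.61 ± 0.15, 0.00240). In MKN7 it had fallen by 4 h (log2FC -0.95 ± 0.21, adjusted p = 0.00213), and after EGF in MKN1 it rose at 4 h from 4.77 ± 0.695 to 10.8 ± 2.25 CPM (1.19 ± 0.15, 4.31e-07). HES2, another gene of the HES family, rose after afatinib at 24 h in MKN7 from 1.22 ± 0.0621 to 5.21 ± 0.893 CPM (log2FC 2.08 ± 0.21, adjusted p = 1.13e-07) and in NCI-N87 from 2.48 ± 0.266 to 5.53 ± 0.692 CPM (1.12 ± 0.18, 1.79e-05). In NCI-N87 at 24 h, HEY2 fell (log2FC -1.34 ± 0.28, adjusted p = 2.50e-04) and HEYL rose (1.19 ± 0.50, 0.0412), both at mean levels of at most 2.28 CPM.

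The fringe enzymes add sugars to Notch receptors and shift their choice of ligand. MFNG fell after afatinib in MKN1 at 4 h (log2FC -0.51 ± 0.14, adjusted p = 0.0355) and at 24 h (-0.94 ± 0.15, 1.88e-05), in MKN7 at 24 h (-0.80 ± 0.22, 0.00364) and in NCI-N87 at 4 h (-0.63 ± 0.16, 0.00609). It rose after EGF in MKN1 at 4 h (0.53 ± 0.14, 0.0128). LFNG rose in NCI-N87 at 4 h from 190.0 ± 44.8 to 432 ± 18.5 CPM (log2FC 1.19 ± 0.11, adjusted p = 1.33e-07) and fell in MKN1 after EGF at 24 h (-0.75 ± 0.12, 7.26e-06).

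Genes of receptor processing moved both ways. FURIN, a protease that cuts the receptors during their maturation, fell in NCI-N87 at 24 h from 284 ± 30.5 to 111 ± 1.92 CPM (log2FC -1.38 ± 0.14, adjusted p = 2.19e-08) and in MKN7 (-0.43 ± 0.08, 9.79e-05), and rose in MKN1 after EGF at 24 h (0.53 ± 0.12, 0.00106). APH1B, a subunit of the gamma-secretase that releases the intracellular part, rose after afatinib at 24 h in MKN7 (log2FC 1.49 ± 0.18, adjusted p = 9.37e-07), NCI-N87 (1.04 ± 0.36, 0.0160) and MKN1 (0.61 ± 0.17, 0.00884), and fell in MKN1 after EGF at 24 h (-1.39 ± 0.19, 8.43e-07). In the nuclear complex, MAML3, a coactivator, rose in NCI-N87 at 4 h from 7.28 ± 0.420 to 15.7 ± 1.81 CPM (1.11 ± 0.16, 2.12e-05). MAML2 rose after afatinib in MKN7 at 4 h (0.43 ± 0.15, 0.0489) and 24 h (0.57 ± 0.15, 0.00321). NEURL1, which is known to act on ligand uptake, rose in MKN1 after EGF at 24 h (0.84 ± 0.10, 4.16e-08) and fell there after afatinib (-0.34 ± 0.10, 0.00882) and cetuximab (-0.34 ± 0.10, 0.0217). After afatinib in MKN7 it rose at 4 h (0.24 ± 0.08, 0.0419) and at 24 h (0.33 ± 0.08, 0.00215).

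The patterns over the 44 conditions were compared after taking the mean of each cell line and time point away, as Pearson's r over condition means. The conditions share treatments, cell lines and the mean taken away, so r is a description. JAG1 and HES1 ran together (r = 0.87), as did NOTCH1 and NOTCH2 (0.87) and NOTCH1 and JAG1 (0.88), and JAG2 ran against DLL1 (-0.76) and HES1 (-0.60). Of 11746 genes, those most like HES1 were IER3 (0.97), PHLDA1 (0.96) and ERRFI1 (0.95), and those most like JAG1 were KPNA4 (0.98), SMIM15 (0.97) and EIF5A2 (0.97). DLL1 was most like RASA3 (0.91), KLF4 (0.90) and DPF3 (0.90), and JAG2 was most like ACKR3 (0.91), PIAS1 (0.90) and DGCR5 (0.89). NOTCH1 was most like FUBP3, AGO2 and SF1 (all 0.98) and NOTCH2 most like XPO4, IPO7 and ACACA (all 0.97). The nearest genes were less close for NOTCH3 (ALDH3A1, 0.78) and HEY1 (ARHGAP18, 0.78) and least close for DLL4 (DIXDC1, 0.54).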

How the data were processed

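RNA of 4 gastric cancer cell lines was sequenced as directional poly(A) libraries. Per the labels the reads were trimmed with Trim Galore and aligned with STAR to hg38 (versions are not given in the sources used here), and the authors deposited 1 table of raw counts per gene for each library. Of 65217 Ensembl identifiers, 56813 were named through GENCODE 29, and the other 8404 held 0.0422% of the counts. Total counts ranged from 25832557 to 69434151 (median 50725775), and 3 counts, used as the limit of counting, amount to 0.0432 to 0.116 CPM and cover counting error only. None of the 132 pairs of replicates within a condition held identical values, and all varied by at least 6.35 times the Poisson expectation.

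The 9 members, the pathway list and the tests were chosen with earlier results of these data known. Counts were tested with edgeR 4.0.16 (R 4.3.3; quasi-likelihood, TMM scaling, filterByExpr with its count limit at 10 and its total limit at 15), in 1 fit per cell line with 1 mean per condition. Cell lines were compared in a fit of 24 untreated libraries, and the effects of afatinib between cell lines in a fit of all 132. P-values were adjusted by Benjamini-Hochberg over all genes of a contrast, and a call is an adjusted p below 0.05. SE is that of the log2FC, and ± after a level is the SD of 3 libraries unless another number is given. Levels are CPM with TMM factors over all libraries. Overlap of the libraries of compared groups was recorded for the members only, not for all genes. From the pathway list at most 3 higher and 3 lower genes per comparison were eligible to be named, by size of log2FC, and such a gene may be given in other comparisons too; for likeness, the 3 genes with the highest r for each member were taken.

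The edgeR test with its main settings was tried on data simulated for MKN7 at 24 h, untreated and afatinib, without pairing of replicates. Fits over more groups, the block and DESeq2 were not tried in this way. Alternatives were library size scaling, testing all genes, testing genes that reach 10 counts throughout, DESeq2 1.42.0, a fit of the compared groups alone, a limit on log2FC of 1, dropping each replicate in turn, and a block for the replicate number. For the comparisons between cell lines only library size scaling, testing all genes, the block and dropping replicates were run. The replicate numbers come from the labels, which do not say what a number marks. In 50 of 52 comparisons all 3 pairs of same-numbered libraries deviated together from their group means with a correlation above 0.1 (range 0.07 to 0.79). This pairing enters only the fits with the block. The main fits and those without 1 replicate leave it out, so their missed and lost calls hold for unpaired tests.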

Additional observations from a re-analysis of the deposited data

Results flagged for a closer look

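Members are listed here because their log2FC after afatinib differed between a pair of cell lines by an interaction test. At 4 h this held for 1 member between MKN1 and Hs746T (HES1), 1 between MKN7 and NCI-N87 (DLL1) and 1 between NCI-N87 and Hs746T (JAG1). At 24 h it held for 3 members between MKN1 and MKN7 (JAG1, JAG2 and DLL1), 3 between MKN1 and NCI-N87 (NOTCH3, JAG1 and DLL1), 1 between MKN1 and Hs746T (HES1), 3 between MKN7 and NCI-N87 (NOTCH1, JAG2 and DLL1), 4 between MKN7 and Hs746T (JAG1, JAG2, DLL1 and HES1) and 6 between NCI-N87 and Hs746T (NOTCH1, NOTCH2, JAG1, DLL1, HES1 and HEY1). DLL1 between MKN1 and MKN7 was lost without replicate 2 (adjusted p = 0.183, edgeR) and replicate 3 (0.122), and between MKN7 and Hs746T without replicate 1 (0.103) and replicate 3 (0.0581). Between NCI-N87 and Hs746T, DLL1 was lost without replicate 2 (0.129) and HEY1 without replicate 3 (0.118) and with libraries scaled by size alone (0.0613).

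DLL1 was called in opposite directions at 24 h, lower in MKN1 and MKN7 and higher in NCI-N87, with differences of -3.12 (MKN1 minus NCI-N87) and -4.49 (MKN7 minus NCI-N87) on the log2 scale. JAG2 was called higher in MKN7 and lower in NCI-N87 at 24 h, with a difference of 1.22 (MKN7 minus NCI-N87), although the call in NCI-N87 was kept in 1 of 9 alternative settings.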

How the results depend on the processing

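Called log2FC values of the members after afatinib, over time in untreated cells, and after EGF and cetuximab in MKN1 were counted. Those after Tra+Afa or EGF+Cet and those between cell lines were not. Of the 48 values counted, 20 were called in all alternatives run, leaving aside the limit on log2FC of 1. The sign of 1 reversed, JAG2 in NCI-N87 at 24 h of afatinib, which became 0.04 with library size scaling. That scaling moved the median log2FC of all genes by 0.26 in this comparison, 0.12 in MKN7 at 24 h of afatinib, and -0.11 and -0.19 in MKN1 at 4 h and 24 h of EGF. The cause of the changes below was not tested. Counts of called members (of 9) that moved by more than 1.5 times are given below, and calls lost in counts that moved less stand beside the results. Among the alternatives, the share of all genes called is given for the replicate block, here or beside the results. Beside some results with 0 called members, a count over all genes is also given for DESeq2. For the other settings and comparisons a change of the members and one of all genes cannot be told apart.

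With library size scaling the count was 1 for cetuximab at 24 h in MKN1, 2 for afatinib at 4 h in MKN7, 5 for afatinib at 24 h in NCI-N87 and 3 for NCI-N87 against Hs746T at 24 h. With the compared groups alone it was 1 for cetuximab at 24 h, 2 for afatinib at 4 h in MKN7, and 1 in MKN7 and 0 in Hs746T for time. With at least 10 counts in every library it was 5 for afatinib at 24 h in NCI-N87, with no filter it was 0 for time in Hs746T, and DESeq2 gave 1 for cetuximab added to EGF at 24 h. With a limit on log2FC of 1 it was 1 for EGF at both times and for cetuximab at 4 h, 0 for afatinib and cetuximab at 24 h and for time in MKN1, 2 for afatinib at 4 h and 1 for time in MKN7, 1 and 3 for afatinib at 4 h and 24 h in NCI-N87, and 0 for time in Hs746T.

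With the replicate block the count was 7 for afatinib at 24 h in MKN1, 8 at 4 h in MKN7 (33.5% of all genes), 5 at 4 h in NCI-N87 (29.2%), 3 for time in Hs746T (10.2%), and 1 and 3 for cetuximab added to EGF at 4 h and 24 h (3.12% and 5.31%). For the effect of afatinib between cell lines the block gave 2 for MKN1 against MKN7, 4 for MKN1 against NCI-N87, 2 for MKN1 against Hs746T, 3 for MKN7 against NCI-N87, 3 for MKN7 against Hs746T and 2 for NCI-N87 against Hs746T at 4 h, and 5 for MKN1 against NCI-N87, 3 for MKN1 against Hs746T and 7 for MKN7 against NCI-N87 at 24 h. Under the block NOTCH1 was also called after EGF at 4 h and cetuximab at 24 h in MKN1, NOTCH2 and NOTCH3 for time in MKN1, NOTCH2 and JAG2 for time in MKN7, and NOTCH3 for MKN7 against Hs746T at 24 h. None of the 48 values lost its call under the block.

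Leaving out 1 replicate gave 1 to 3 for EGF at 4 h, 0 to 2 for cetuximab at 4 h and at 24 h, 3 to 6 for time in MKN1 and 0 to 4 in MKN7, 0 to 1 for time in Hs746T, 2 to 4 for afatinib at 4 h in MKN7, 1 to 2 at 4 h and 5 to 6 at 24 h in NCI-N87, 0 each time for MKN1 against Hs746T and for MKN7 against NCI-N87 at 4 h, 0 to 1 for MKN1 against Hs746T and 3 to 6 for NCI-N87 against Hs746T at 24 h. With 2 libraries left in a group, the spread was taken from all groups of the fit. Depth limits DLL1 in NCI-N87 and Hs746T and NOTCH3 in Hs746T.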

Other observations

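Some members were highest in the same replicate number in every condition of a cell line. NOTCH2 was highest in replicate 1 in 14 of 14 conditions of MKN1 and of Hs746T, and in replicate 2 in 8 of 8 conditions of MKN7. JAG1 in Hs746T was highest in replicate 1 in 14 of 14 conditions, NOTCH3 in NCI-N87 in replicate 2 in 8 of 8, and JAG2 in MKN1 in replicate 3 in 13 of 14. The labels do not say what a replicate number marks.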
